A study of Triticum aestivum with 6 samples.

Results

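The 107 genes described here are the most abundant transcripts among 2578 genes and loci that differed between wheat roots exposed to signals of a mycorrhizal fungus and control roots. They were chosen by their measured level, as the listed genes with at least 100 FPKM in the treatment where they were higher, and make up 4.15% of the table. FPKM counts sequenced fragments scaled by transcript length and by sequencing depth, so levels of different genes are compared per length. Of the 107 genes, 67 were higher and 40 were lower in the signal treatment. In control roots the 40 lower genes held most of the level, with a sum of 24215 FPKM against 4706 FPKM for the 67 higher genes. In signal-treated roots the sums were 11118 and 12656 FPKM. The larger of the pair of values chose the genes, so these counts and levels are a description and carry no test.

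The roots came from Chinese Spring, a cultivar of hexaploid bread wheat (Triticum aestivum), grown at 15 plants per pot in a steamed mixture of soil and quartz sand. In the signal treatment (MSC), 15 membrane bags per pot with pores of 0.25 µm were each filled with 25 g of Rhizophagus irregularis inoculum. The membrane kept hyphae and spores away from the roots and let dissolved molecules through. Bags of the non-mycorrhizal control (NM), also 15 per pot, each held 20 g of steamed inoculum of the same fungus, and received a filtrate of live inoculum so that their other microbes would be similar. The bags of the treatments therefore differed in inoculum mass and in steaming as well as in the live fungus, and the filtrate is described for NM only. The effects of these differences cannot be told apart. Root messenger RNA of 3 biological replicates per treatment was sequenced, but the table holds 1 FPKM value per treatment, so no spread, standard error or p-value belongs to any gene. Depth per library is unknown. RNA was taken from bulk root tissue, in which fewer cells of a type and less RNA per cell cannot be told apart.

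Arbuscular mycorrhizal fungi exchange diffusible signals with roots before they touch them. Roots release strigolactones, which stimulate the fungus, and the fungus releases lipochitooligosaccharides and short chitin oligomers, which root receptor kinases perceive and which set off the common symbiosis signalling pathway. Abundant root transcripts in general tend to serve housekeeping, transport, cell wall and defence functions. Which functions the 107 genes have is not known here, because the table gives identifiers without gene names and 0 of the 107 identifiers matched the reference gene table, so no root marker could be looked up either. Genes are therefore described by level, change and the chromosome arm that their identifier names, and at most 2 identifiers per direction are printed.

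The highest control level belonged to Traes_7AS_406885D49, a gene on the short arm of chromosome 7A, which had 5329 FPKM in NM and 2446 in MSC, a 2.18-fold lower value. A gene on the long arm of 5D had 4552 FPKM in NM and 2268 in MSC. An assembled locus without a chromosome in its identifier had 3115 FPKM in NM and 1542 in MSC. These 3 genes stood far above all other listed genes, none of which reached 1000 FPKM in either treatment, and together they held 53.7% of the NM sum of the 40 lower genes. Without them the 107 genes summed to 15925 FPKM in NM and 17518 in MSC, against 28921 and 23774 FPKM with them, so the lower total in MSC rested on these 3 genes.

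**Figure D1:**
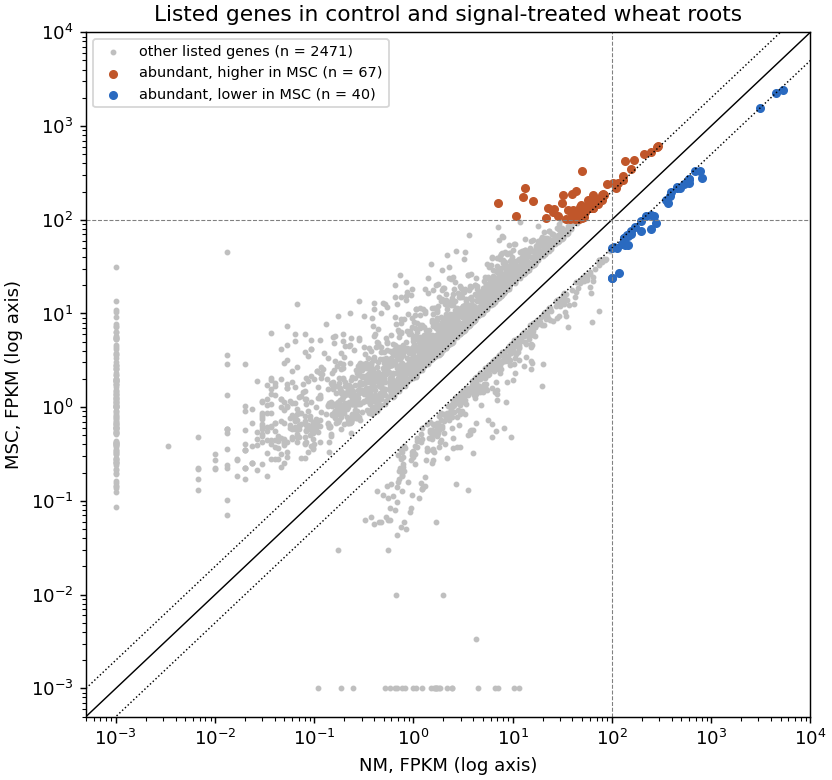
Level of every listed gene in control roots (NM, horizontal) and signal-treated roots (MSC, vertical), in FPKM on log axes, 1 point per gene. Coloured points are the 107 genes with at least 100 FPKM (dashed lines) in their higher treatment, the solid line marks equal values and dotted lines 2-fold differences. The 3 genes at the upper right, all lower in MSC, stand apart with 3115 to 5329 FPKM in NM.

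Below these 3, the remaining 37 lower genes had between 100.26 and 799.6 FPKM in NM. The next most abundant were genes on the long arm of 1A, with 799.6 FPKM in NM and 275.8 in MSC, and on chromosome 3B, with 770.3 FPKM in NM and 327.9 in MSC. Over all 40, the median level was 248.2 FPKM in NM and 102.8 in MSC, and 20 of them still had at least 100 FPKM in MSC. The median of their changes was 2.22-fold, the quartiles were 2.06- and 2.46-fold, and 35 of the 40 differed by less than 3-fold. Every listed gene differed by at least 2-fold, so the lower end of this spread was set by that limit. The largest decrease was that of Traes_3AS_9C46547191, on the short arm of 3A, from 117.8 FPKM in NM to 27.4 in MSC, or 4.31-fold. Another pair of identifiers passed 4-fold, both on the long arm of 1A and with identical values of 100.29 FPKM in NM and 24.0 in MSC. They share a sequence code in their identifiers, so that their reads may belong to 1 gene.

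The 67 higher genes spanned a narrower range of levels than the lower genes, with a median of 51.7 FPKM in NM and 142.6 in MSC. The most abundant was Traes_5BL_873E079B3, on the long arm of 5B, with 290.2 FPKM in NM and 617.9 in MSC, a 2.13-fold higher value. It was followed by a 3B gene with 284.0 FPKM in NM and 596.8 in MSC and by an assembled locus with 247.5 FPKM in NM and 533.2 in MSC. All 3 were already among the better expressed listed genes in control roots, as were the 12 higher genes in all with at least 100 FPKM in NM. The other 55 crossed 100 FPKM between the treatments, 33 of them from under 50 FPKM. For the 51 higher genes with under 200 FPKM in MSC, this crossing was set by the limits, as every listed gene differed by at least 2-fold. The median change of the 67 higher genes was 2.49-fold, with quartiles of 2.22- and 3.13-fold.

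**Figure D2:**
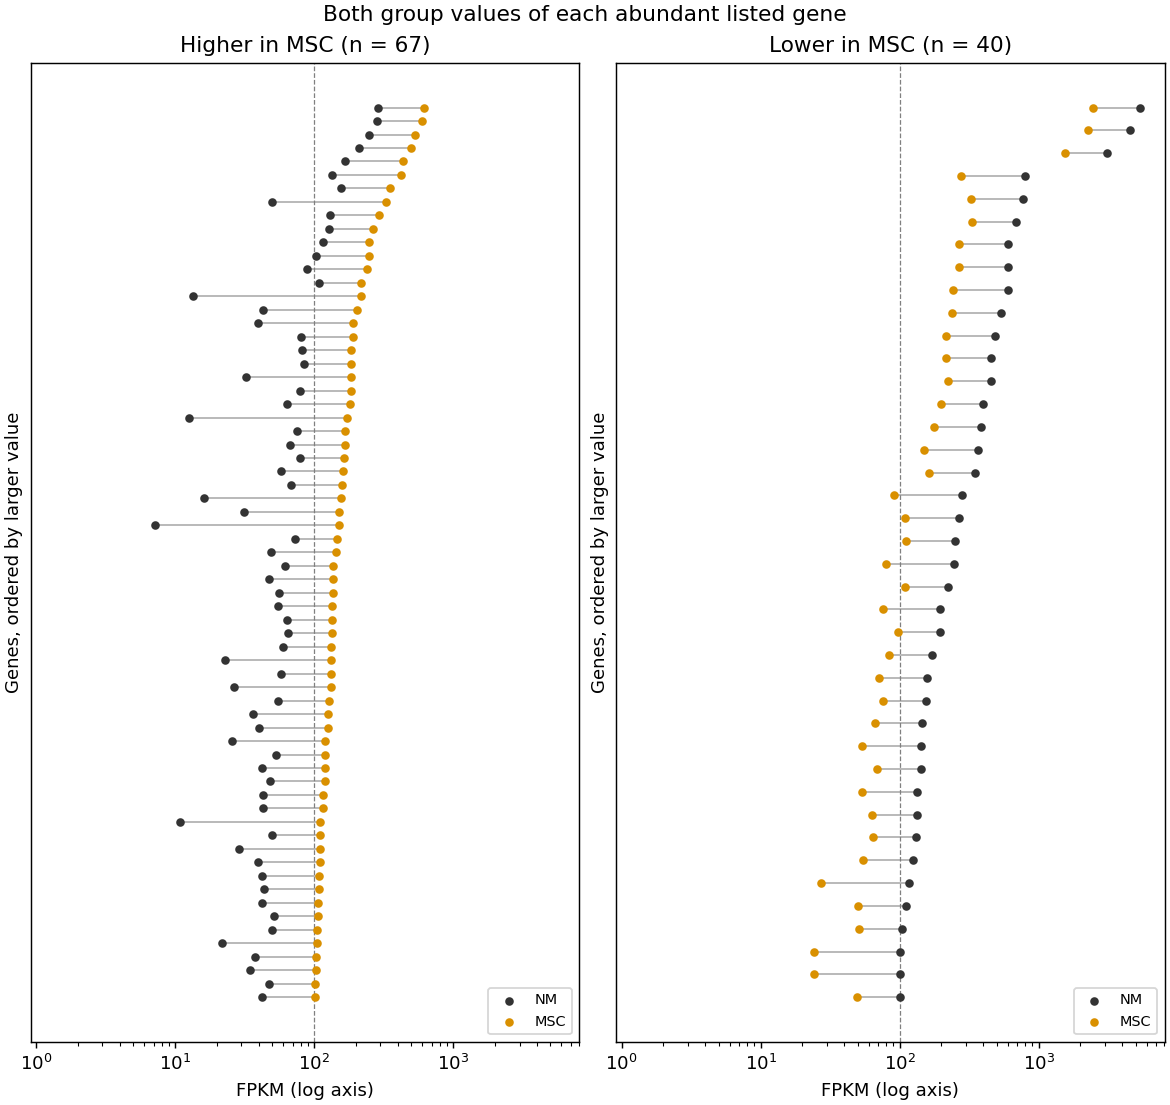
Both values of each of the 107 genes, in FPKM on a log axis, with 1 row per gene ordered by its larger value, for the 67 genes higher in MSC (left) and the 40 lower in MSC (right). Dark points are NM, orange points MSC, and the dashed line marks 100 FPKM. The longest bars, which are the largest changes, are on the left, reaching down to 7.12 FPKM in NM; on the right 3 bars pass 4-fold, near the bottom.

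A set of 14 genes went from a low or moderate level in NM to at least 100 FPKM in MSC with a change of 4-fold or more. They had 7.12 to 49.7 FPKM in NM and 104.3 to 327.3 FPKM in MSC. The largest change was listed for Traes_3B_BDF4FBBCE, on chromosome 3B, with 7.12 FPKM in NM and 150.1 in MSC, or 21.1-fold. Its row is 1 of 21 in the table that stand out of identifier order, the only such row among the 107, and whether its values belong to its identifier was not tested.

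The next largest changes had rows in order. A gene on the short arm of 6D went from 13.4 FPKM in NM to 215.7 in MSC, or 16.1-fold. One on the long arm of 2D went from 12.6 FPKM in NM to 173.2 in MSC, or 13.7-fold. On the long arm of 1A, a gene went from 10.8 FPKM in NM to 110.6 in MSC, or 10.2-fold, in the opposite direction to the other 6 abundant genes of that arm. The fifth gene past 8-fold, on the long arm of 2A, went from 16.2 to 156.8 FPKM. In absolute level the largest gain in the set of 14 was that of a second 3B gene, with 49.7 FPKM in NM and 327.3 in MSC. Of the 14 genes, 5 lay on the long arms of 2A, 2B and 2D, at 4.79- to 13.7-fold, and 3 on the long arms of 7B and 7D, at 4.72- to 5.79-fold. Of all listed genes with an arm in their identifier, 14.2% lay on the long arms of 2A, 2B and 2D. The long arms of 7A, 7B and 7D held 7.52%. With only 14 genes, these counts are not read as an excess on any arm.

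Set beside the whole table, the abundant genes held a larger share of lower genes. Higher genes formed 62.6% of the 107 and 79.8% of all 2578 listed genes, and lower genes 37.4% of the 107 and 20.2% of all listed genes. Every listed gene differed by at least 2-fold, so these shares describe a table already selected by change. A change of 4-fold or more upwards was seen in 14 of the 107 genes, or 13.1%, against 30.4% of the 2421 listed genes above the lowest value of 0.001 FPKM in both treatments. Downwards it was seen in 3 of the 107, or 2.80%, against 3.97%. At 8-fold or more upwards the abundant genes numbered 5, or 4.67%, against 13.7%. The shares over the whole table were carried by genes of low level: a change of 4-fold or more was found in 79.7% of the higher genes under 1 FPKM and in 41.6% of those between 1 and 10 FPKM. It was found in 21.9% between 10 and 50 FPKM, 12% between 50 and 100 FPKM, 21.6% between 100 and 200 FPKM and 23.1% between 200 and 500 FPKM, so that large increases were no rarer between 100 and 500 FPKM than in the class just below, while 0 of the 3 higher genes from 500 FPKM upwards reached 4-fold. None of the 107 was listed at 0.001 FPKM in either treatment, while 157 of all listed genes were.

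Inside the set itself, the share of higher genes was smaller at higher levels. Of the 69 genes between 100 and 200 FPKM, 51 were higher and 18 lower in MSC, so that 73.9% were higher. Between 200 and 500 FPKM, 13 were higher and 12 lower, a share of 52.0%, and from 500 FPKM upwards 3 were higher and 10 lower, a share of 23.1%. Below 100 FPKM the share lay between 78.0% and 82.8% in each of 4 classes of level. The median change of the higher genes declined from 2.53-fold between 100 and 200 FPKM to 2.13-fold from 500 FPKM upwards, whereas that of the lower genes stayed between 2.18- and 2.24-fold in these classes. Where the mean of both treatments, in place of the larger value, had to reach 100 FPKM, 29 genes were higher and 29 lower. Where both treatments had to reach it, 12 were higher and 20 lower. The cause of the difference between these limits was not tested.

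**Figure D3:**
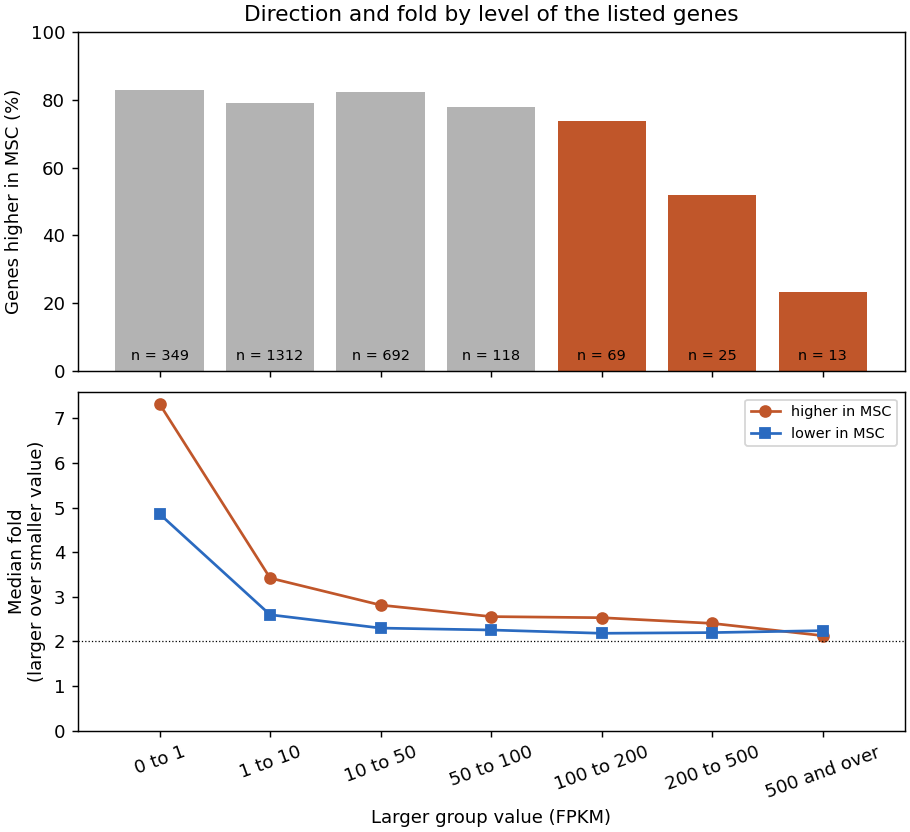
Listed genes by class of larger group value (FPKM, horizontal). Bars give the percentage of genes higher in MSC with the number of genes in each class, coloured from 100 FPKM upwards; points give the median fold, larger over smaller value, without genes at 0.001 FPKM in 1 treatment, and the dotted line is the 2-fold limit of the table. The share drops from 73.9% to 52.0% and 23.1% over the 3 coloured classes.

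The abundant genes weighed more in the listed decreases than in the increases. They contributed 33.5% of the FPKM gained over all listed higher genes, 7950 of 23758 FPKM, with a median gain of 93.9 FPKM and a largest gain of 327.6 FPKM. Of the FPKM lost over all listed lower genes they contributed 79.7%, 13097 of 16437 FPKM, with a median loss of 147.1 FPKM. The 3 largest gains made up 11.7% of the gain of the abundant genes, and the 3 largest losses 51.5% of their loss. In NM the 107 genes held 68.2% of the FPKM summed over the table, and in MSC 47.8%. At the limit itself, the genes just inside had 100.26, 100.29 and 100.29 FPKM in NM, all lower in MSC, and 100.69 FPKM in MSC, on the short arm of 2A. Just outside were genes on 6AL, with 99.9 FPKM, and on 1BL, with 95.1 FPKM, both higher in MSC.

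How NM and MSC are scaled against each other bears on these counts. Equalising the upper quartiles of the listed genes lowers every MSC value by 1.04 on the log2 scale, which by construction can only enlarge the decreases. Of the 107 genes, 14 were then still at least 2-fold higher and all 40 at least 2-fold lower. Where the larger value also had to reach 100 FPKM after the shift, 2 higher and 40 lower genes were left. Direction alone changed less, as 64 of the 67 higher genes still had the larger value in MSC after it. That shift comes from the listed genes themselves, which were mostly higher in MSC, and the scaling of the unlisted genes was not analysed here.

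Where the genes lie was not used to choose them. Wheat has the subgenomes A, B and D, and its chromosomes form 7 homoeologous groups, each with an A, a B and a D copy that carry largely the same genes. A chromosome was named by 100 of the 107 identifiers, on 19 of the 21 chromosomes, without 3D and 6B. Subgenome A held 28 genes, B 39 and D 33, and the share of higher genes was 60.7%, 66.7% and 63.6%. Among listed genes under 100 FPKM these shares were 80.1%, 82.0% and 82.4%.

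Most abundant genes of homoeologous group 1 were lower in MSC and most of group 2 were higher. In group 1, 3 of 16 abundant genes were higher and 13 lower in MSC, while in group 2, 21 of 22 were higher and 1 lower. The shares of higher genes were 18.8% and 95.5%, against 64.5% among the 62 abundant genes of groups 3 to 7. Among all listed genes under 100 FPKM in groups 1 and 2 they were 77.8% and 85.1%. Between 50 and 100 FPKM, 60% of 15 listed genes were higher in group 1 and 90% of 30 in group 2. The share of group 2 was thus near that of the class just below, where group 7 had 91.7% of 12. Direction comes from the same values that chose the genes, so the difference between the groups was not tested, and A, B and D copies of 1 gene may be counted several times.

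The abundant genes of group 1 lay mostly on the long arms, where 10 were lower and 1 higher. Over all listed genes, 67.4% of 135 were higher on the long arms of the group and 81.2% of 133 on its short arms. Levels of the 10 had a median of 307.5 FPKM in NM and 123.0 in MSC, with changes of 2.00- to 4.17-fold. Besides the 1A gene named above, they included a gene on 1BL with 598.2 FPKM in NM and 243.7 in MSC, and on 1DL a gene with 386.7 FPKM in NM and 177.7 in MSC. All 3 chromosomes of the group were thus represented, with 6, 2 and 2 lower genes on 1AL, 1BL and 1DL, where the 6 include the pair with identical values. On the short arm of 1D, 3 genes were lower, with 132.0 to 157.0 FPKM in NM, and 2 were higher, with 102.6 and 110.2 FPKM in MSC. The 3 lower genes had 64.3 to 70.8 FPKM in MSC.

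Group 2 had 12 abundant genes on its long arms and 10 on its short arms. All 10 short-arm genes were higher in MSC, at 2.07- to 3.47-fold, beside a share of 82.9% over all 211 listed genes of these arms, with medians of 61.4 FPKM in NM and 149.8 in MSC. The most abundant of them, on 2AS, had 102.5 FPKM in NM and 246.4 in MSC. On the long arms, where 87.5% of all listed genes were higher, 11 abundant genes were higher, with a range of 2.21- to 13.7-fold and medians of 39.6 FPKM in NM and 136.7 in MSC. The single lower gene of the group, on 2DL, was also the one closest to the limit, with 100.26 FPKM in NM and 49.6 in MSC.

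**Figure D4:**
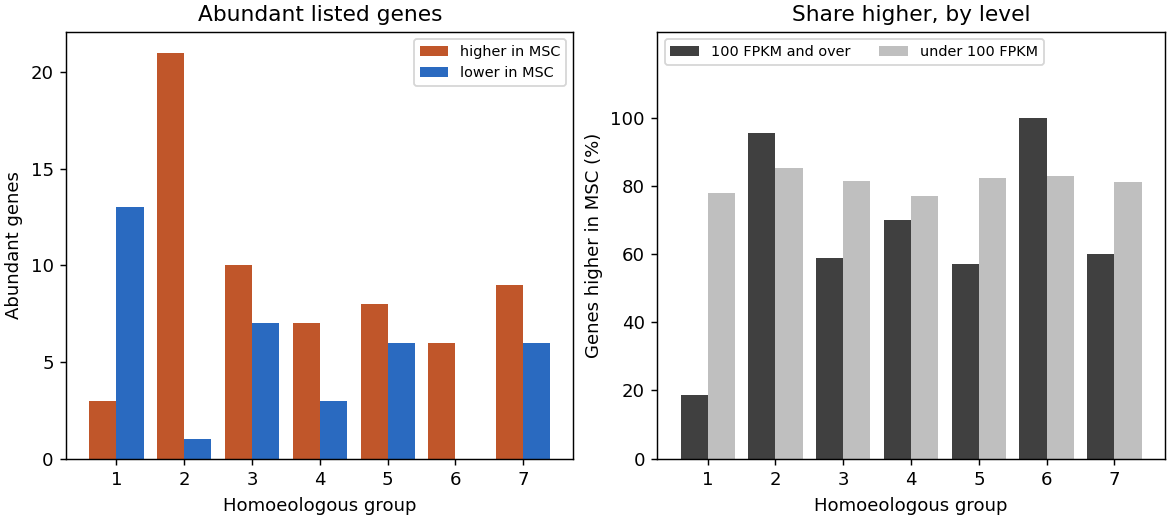
Abundant listed genes by homoeologous group. Left, numbers of genes higher (orange) and lower (blue) in MSC; right, percentage of genes higher in MSC among genes of at least 100 FPKM (dark) and under 100 FPKM (light). Group 1 has 3 higher and 13 lower abundant genes and group 2 has 21 and 1, while the light bars lie between 77.1% and 85.1%.

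In group 6, the 6 abundant genes, 2 on 6A and 4 on 6D, were all higher in MSC, at 115.4 to 497.2 FPKM. Over all listed genes of group 6 the share of higher genes was 83.3%, and between 50 and 100 FPKM it was 63.6% of 11. Because the abundant genes of the group number only 6, 6 of 6 is not read as particular to it. In group 3, 10 genes were higher and 7 lower, and 14 of these 17 lay on 3B. Of the 14, 11 came from a separate 3B annotation, with 6 higher at 2.00- to 2.32-fold and 5 lower at 2.23- to 3.04-fold. Among these 5, a pair had identical values of 604.9 FPKM in NM and 269.4 in MSC. Group 5 had 8 higher and 6 lower genes, and group 4 had 7 higher and 3 lower. The shares of higher genes were 58.8%, 70% and 57.1% in groups 3, 4 and 5. Over all listed genes of these groups they were 80.1%, 76.9% and 81.3%. In the 3B annotation, 54.5% of the abundant genes were higher, beside 80.3% of all its listed genes. These differences were not tested.

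The short arms of group 7 held 5 lower genes, with 265.4 to 5329 FPKM in NM and 108.7 to 2446 FPKM in MSC, on all 3 chromosomes. On 7BS they had 534.5 and 453.8 FPKM in NM, and on 7DS 452.4 FPKM. In MSC these 3 genes lay close together, at 215.4 to 238.9 FPKM. Whether these genes are copies of one another is not given by the identifiers. The 4 higher genes of the short arms had 37.8 to 75.3 FPKM in NM and 102.8 to 167.2 FPKM in MSC, where their range overlapped that of the lower genes. On the long arms of the group, 5 genes were higher, with 104.3 to 420.2 FPKM in MSC, and 1 was lower, with 134.0 FPKM in NM. Over all listed genes, 75.3% of 93 were higher on the short arms of the group and 82.6% of 144 on its long arms. Among the abundant genes the shares were 44.4% of 9 and 83.3% of 6. The share on the long arms was thus near that of all listed genes there, and the difference on the short arms was not tested.

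By type of identifier, 89 of the abundant items were gene models with Traes identifiers, 11 belonged to the 3B annotation and 7 were assembled loci. Assembled loci formed 6.54% of the abundant items and 19.7% of the listed items under 100 FPKM. Of the 7, 3 were higher and 4 lower, and apart from the one at 3115 FPKM in NM they had 104.8 to 533.2 FPKM in their higher treatment. Over all 494 listed assembled loci, 75.9% were higher in MSC, and with only 7 abundant loci the difference was not tested. Identical pairs of values were found for 4 of the 107 identifiers, the pairs on 1AL and 3B given above, against 90 of all 2578. Counting such copies once left 67 higher and 38 lower genes.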

How the data were processed

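RNA from wheat roots of 3 NM and 3 MSC samples was sequenced. The authors deposited 1 table with an FPKM value per treatment. Per the submitters' processing notes, TopHat2, Cufflinks and RSEM 1.3.0 were used; their roles, the genome build, the authors' test and selection limits have no statement in the sources used here. All 4999 deposited values other than 0.001 are multiples of 1/300 within 0.01 of a step, as means of 3 values with 2 decimals would be, and 0.001 was read as a stand-in for 0. No counts could be recovered from such means, so no count model was fitted.

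Genes with a larger group value of at least 100 FPKM were taken. Direction and fold are from the deposited values without a pseudocount. Chromosome and arm were read from identifiers. Printed identifiers are, per direction, the gene with the largest level and that with the largest fold. The members and the comparisons were chosen with earlier results of these data known. No test was run, because the values chose the genes and treatments have 1 value each. Counting was tested on simulated data. Python 3.11.15, NumPy 2.4.6, pandas 2.3.3 and matplotlib 3.10.9 were used.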

Additional observations from a re-analysis of the deposited data

How the results depend on the processing

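Counts followed the level limit by construction. With limits of 50 and 200 FPKM, 159 and 16 genes were higher and 66 and 22 lower, 25 and 3 at least 4-fold higher, 5 and 0 at least 4-fold lower, and 210 and 36 named a chromosome. With the mean of both treatments at 100 FPKM or more, 29 were higher, 5 at least 4-fold higher, 0 at least 4-fold lower, and 54 named a chromosome. With both treatments at 100 FPKM or more, 12 were higher and 20 lower, 0 at least 4-fold higher or lower, and 30 named a chromosome. After rescaling to equal upper quartiles with the limits of 2-fold and 100 FPKM both applied again, 2 genes were higher, 1 of them at least 4-fold, 40 were at least 4-fold lower, and 38 named a chromosome; the count of lower genes is fixed by construction. Without the level limit, 14 of the 67 higher genes were still at least 2-fold higher.

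The median change of higher genes, 2.49-fold, was 2.51 and 2.31 at 50 and 200 FPKM, 2.35 with the mean, 2.20 with both treatments, 5.53 rescaled, 2.48 without the row out of order, and 2.48, 2.46 and 2.36 with pseudocounts of 0.1, 1 and 5 FPKM. That of lower genes, 2.22-fold, was 2.24 at 50 FPKM, 2.18 with the mean, 2.20 with both treatments, 4.56 rescaled, 2.20 with identical copies once, and 2.20 and 2.16 with pseudocounts of 1 and 5 FPKM. The shares by homoeologous group were recomputed under settings chosen after seeing the data. Group 1 had 0% higher genes at 200 FPKM (0 of 6), with the mean (0 of 9) and with both treatments (0 of 5), and group 2 had 100% (2 of 2, 8 of 8 and 1 of 1), numbers too small to add to the reported shares. Rescaling with both limits gave 0% in group 1 (0 of 13) and in group 2 (0 of 1), because the higher genes no longer passed the limits. Without the limits, the 21 higher genes of group 2 and the 3 of group 1 all kept the larger value in MSC. The 13 lower genes of group 1 and the 1 of group 2 stayed lower, which the shift fixes by construction. At 50 FPKM the shares were 38.7% of 31 and 92.3% of 52. Requiring 1 FPKM in both treatments changed no count. No paired analysis was possible because NM and MSC each have a single deposited value, and leaving out a replicate was not run on that account. Depth is unknown.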
